A study of Mus musculus with 10 samples.

Results

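The polyamine synthesis and breakdown genes described here are 10 of the 55487 genes in the count tables: *Srm*, *Sms*, *Odc1*, *Amd1*, *Azin1*, *Oaz1*, *Sat1*, *Smox*, *Paox* and *Aoc1*. They were chosen by their place in the pathway with earlier results of these data in view, in which *Srm* and *Aoc1* differed between the genotypes of mammary epithelial cells (MECs). Their genotype values are therefore a description and support nothing beyond themselves. All 10 genes were found by symbol and passed the filter on low counts in each fit, and 9 had counts in every library. *Aoc1* had 0 counts in 1 macrophage library.

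Putrescine, spermidine and spermine are small positively charged molecules that bind nucleic acids and are needed for growth and translation. Ornithine decarboxylase (*Odc1*) makes putrescine, S-adenosylmethionine decarboxylase (*Amd1*) supplies the aminopropyl group, and spermidine synthase (*Srm*) and spermine synthase (*Sms*) add it in turn. Antizyme (*Oaz1*) binds ornithine decarboxylase and sends it to the proteasome, and antizyme inhibitor (*Azin1*) takes antizyme away. Breakdown runs through the acetyltransferase *Sat1*, the oxidases *Smox* and *Paox*, and diamine oxidase (*Aoc1*), which oxidizes putrescine and histamine outside the cell.

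The 10 libraries came from 10-wk-old diestrus female mice on the BALB/c background. WT mice were Csf1r-Cre neg with Cebpb fl/fl alleles, and CebpbΔM mice were Csf1r-Cre pos with Cebpb fl/fl alleles, so both genotypes carried the floxed alleles and CebpbΔM also carried the Cre transgene, which is active in CSF1R-expressing myeloid cells and not only in macrophages. The MEC libraries were WT 1 and 3 and CebpbΔM 1 and 3 (n = 2 per genotype), from cells purified by removal of other lineages. The macrophage libraries were WT 4 and 5 (n = 2) and CebpbΔM 4 to 7 (n = 4), from cells bound by antibody to F4/80. The sources used here do not say whether a library is 1 mouse or a pool, so the *P*-values measure the spread between these libraries, which may be technical.

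Total counts ran from 25310926 to 27008166 in MEC libraries and from 16935000 to 20174722 in macrophage libraries, so 3 counts correspond to between 0.111 and 0.177 CPM (counts scaled to library size). *Cebpb* itself had 25 and 28 counts in WT MECs, 69 and 42 in CebpbΔM MECs, 13 and 15 in WT macrophage libraries, and 16, 13, 5 and 4 in CebpbΔM macrophage libraries. The macrophage genotypes overlapped at these low counts, so the deletion was not checked by its transcript. The genotypes are taken from the labels, which call the CebpbΔM samples of both cell types a C/EBPb knockdown. The 10 macrophage markers summed to between 3605 and 8335 CPM in the macrophage libraries and to between 29.5 and 45.6 CPM in MEC libraries. The 9 luminal markers summed to between 27918 and 35188 CPM in MEC libraries, and also to 10410 and 10403 CPM in WT 4 and 5 and to between 5438 and 6934 CPM in the CebpbΔM macrophage libraries. Epithelial transcripts were thus present in every macrophage library, and in bulk RNA fewer cells of a type and less RNA per cell cannot be told apart.

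One stretch of sequence shows why transcript counts give only part of the control of this pathway. The *Oaz1* message holds an in-frame stop codon that ribosomes pass by a shift of the reading frame when polyamines are high, and this step leaves no trace in a count of reads. The site lies in coding exon sequence of *Oaz1* on the plus strand of GRCm38 at chr10:80828265-80828324, after 201 coding bases, in the frame of the start codon. Capitals mark codon 68 and the stop codon 69:
Oaz1: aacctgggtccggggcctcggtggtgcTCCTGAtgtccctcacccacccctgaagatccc

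Myc, a growth-related transcription factor, binds the E-box CACGTG, and the palindrome TTGCGCAA is a site for C/EBP proteins. RefSeq promoter windows of GRCm38.p6, each spanning the start of a gene, were searched for both on both strands, and 8 of the 10 genes had 11 windows. *Srm* and *Azin1* had no entry. The E-box was found in 1 of the 11 windows, that of *Sms*, and in 7.15% of all 32851 windows. The C/EBP palindrome was found in 0 of the 11 windows and in 0.183% of all windows. The *Sms* match, in capitals, began 196 bases before the start on the minus strand, at chrX:157492456-157492505:
Sms: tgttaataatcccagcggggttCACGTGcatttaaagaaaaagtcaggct

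Transcript levels of the 10 genes spanned a wide range when scaled by length. The length was that of the gene model, not of a single transcript, so the order of genes and the ratios between them also depend on the annotation. In WT MECs, on a scale set over all 10 libraries, *Oaz1* had the highest level at 310 ± 27.6 CPM per kb (SD, n = 2), followed by *Sat1* at 115 ± 13.6 and *Amd1* at 85.1 ± 5.25. *Azin1* followed at 27 ± 0.129 CPM per kb, *Srm* at 18.7 ± 1.79 and *Smox* at 18 ± 2.29. The lower levels were those of *Aoc1* at 6.08 ± 4.01 CPM per kb, *Odc1* at 5.41 ± 0.942, *Sms* at 4.74 ± 0.672 and *Paox* at 1.97 ± 0.163. In this order the ranges of *Srm* and *Smox* overlapped, as did those of *Aoc1* and *Odc1* and those of *Odc1* and *Sms*. The other neighbors were apart in both WT libraries. *Oaz1*, *Sat1* and *Amd1* also held the first 3 places in CebpbΔM MECs and in both macrophage groups. *Srm* moved from place 5 in WT MECs to place 4 in CebpbΔM MECs, and *Aoc1* from place 7 to place 10.

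**Figure D1:**
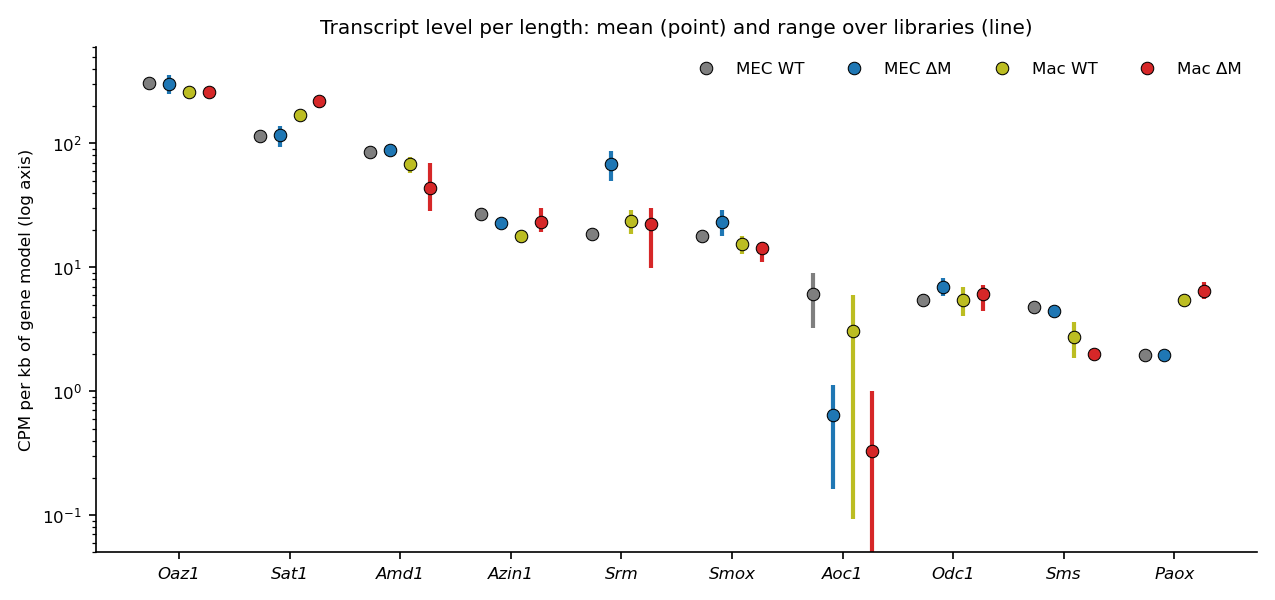
Level of each gene in CPM per kb of gene model on a log axis, with the mean (point) and range (line) of WT and CebpbΔM (ΔM) MEC and macrophage (Mac) libraries. *Oaz1* is highest in each group, and the *Aoc1* line of CebpbΔM macrophages runs to the foot of the axis because 1 library has 0 counts.

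The message of the antizyme exceeded that of its target in every library. Per length, *Oaz1* counts were 47.9 to 69.5 times those of *Odc1* in WT MECs, 30.6 and 61.2 times in CebpbΔM MECs, and 36.7 to 64.6 times in macrophage libraries. The ratio of *Azin1* to *Odc1* was 4.46 and 5.67 in WT MECs and 2.99 and 3.66 in CebpbΔM MECs. These 2 pairs of MEC values did not overlap between genotypes, and neither did 28.7% of all single genes tested in MECs. No such share was taken over ratios of 2 genes. The MEC ratios of *Sat1* and of *Amd1* to *Odc1* overlapped between genotypes. The macrophage values of 2.46 and 4.61 in WT and 3.06 to 4.77 in CebpbΔM overlapped. The ratios were not tested.

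The first comparison asked what differed in the epithelium when *Cebpb* was deleted in macrophages. *Srm*, which makes spermidine, was higher in both CebpbΔM MEC libraries than in both WT libraries, at 132 and 77.5 CPM against 26.2 and 30.5 CPM. The mean was 105 ± 38.5 CPM in CebpbΔM and 28.3 ± 3.04 CPM in WT (SD, n = 2 each). The 2 genotypes did not overlap, and the 2 CebpbΔM libraries differed from each other more than the WT libraries did. The log2 fold change was 1.89 (SE 0.27, 3.70-fold, *P*-adjusted = 0.0477, edgeR quasi-likelihood test with Benjamini-Hochberg adjustment), which placed *Srm* at rank 8 of 15698 genes. *Srm* (ENSMUSG00000006442) lies at chr4:148591503-148594993 on the plus strand of GRCm38. Of the 10 genes, 1 passed the threshold in MECs, where the background was 8 genes or 0.051% of those tested. Since the genes were chosen with this comparison in view, nothing is read from that count. *Srm* was also called by the likelihood ratio test (*P*-adjusted = 2.87e-07) and by DESeq2 (*P*-adjusted = 2.64e-07), which called 179 and 161 genes in all. The *Srm* call was lost with relative log expression factors (*P*-adjusted = 0.0610), with edgeR's filterByExpr (*P*-adjusted = 0.0735), with robust quasi-likelihood (*P*-adjusted = 0.0730, added after seeing the data), and without WT 3 (*P*-adjusted = 0.140), while its log2 fold change stayed between 1.45 and 2.22 under all 12 alternatives.

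*Sms*, which acts on the product of *Srm*, did not share this difference. It had 24.1 and 29.9 CPM in WT MECs and 25.1 and 26.4 CPM in CebpbΔM MECs, and the CebpbΔM values lay between the WT values. The log2 fold change was -0.07 (SE 0.23, *P*-adjusted = 0.9997 by the same test). As a result the ratio of *Srm* to *Sms* per length was 4.09 and 3.83 in WT MECs and 19.8 and 11 in CebpbΔM MECs. A processed copy, *Sms-ps*, had between 20.4% and 53% of the *Sms* counts, so reads may be split between them. Reads that fit both may also have been removed, since a mapping quality of at least 10 was required. With the copy added, the *Sms* log2 fold change was -0.00, but this sum does not restore any removed reads.

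*Odc1*, the first step of the pathway, had 15.2 and 19.7 CPM in WT MECs and 18.9 and 27.1 CPM in CebpbΔM MECs, so the genotypes overlapped. Its log2 fold change was 0.40 (SE 0.27), which did not pass the test (*P*-adjusted = 0.9997 by the same test). *Amd1*, the other decarboxylase, had 296 and 275 CPM in WT and 296 and 308 CPM in CebpbΔM MECs. The unrounded *Amd1* values did not overlap, but the log2 fold change was 0.08 (SE 0.21) and less than its error. *Azin1*, which spares ornithine decarboxylase, had 158 and 162 CPM in WT and 127 and 149 CPM in CebpbΔM MECs. Its values did not overlap, with a log2 fold change of -0.22 (SE 0.20) that did not pass the test. *Oaz1* had 792 and 710 CPM in WT and 867 and 621 CPM in CebpbΔM MECs, with CebpbΔM on both sides of WT and a log2 fold change of -0.01 (SE 0.24).

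*Aoc1*, the diamine oxidase, showed the largest difference of the 10 genes in MECs, in the opposite direction to *Srm*. It had 718 and 260 counts in WT 1 and 3 and 13 and 94 counts in CebpbΔM 1 and 3, or 27.3 and 10.1 CPM against 0.499 and 3.57 CPM. The genotypes did not overlap, but the libraries of each genotype differed widely among themselves. The mean was 18.7 ± 12.2 CPM in WT and 2.03 ± 2.17 CPM in CebpbΔM (SD, n = 2 each). The log2 fold change was -3.2 (SE 0.69), and it did not pass the threshold (*P*-adjusted = 0.141, edgeR quasi-likelihood test, rank 81). It was called by the likelihood ratio test (*P*-adjusted = 0.00172) and without a filter on low counts (*P*-adjusted = 0.0334), and not by DESeq2 (*P*-adjusted = 0.562). With a library left out, 1 genotype held a single library. The log2 fold change was then -2.39 without CebpbΔM 1, -5.22 without CebpbΔM 3, -2.31 without WT 1 and -3.71 without WT 3. *Aoc1* (ENSMUSG00000029811) lies at chr6:48872896-48909188 on the plus strand.

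The other breakdown genes differed less. *Sat1*, which acetylates spermidine and spermine for export or oxidation, had 274 and 329 CPM in WT MECs and 364 and 255 CPM in CebpbΔM MECs. *Smox*, which oxidizes spermine, had 71.9 and 61.1 CPM in WT and 107 and 67.5 CPM in CebpbΔM MECs, with a log2 fold change of 0.39 (SE 0.25). *Paox*, which oxidizes acetylated polyamines, had 8.55 and 9.78 CPM in WT and 9.45 and 9.03 CPM in CebpbΔM MECs. The genotypes overlapped for all 3 genes, and none passed the test. Over the 10 genes, 4 did not overlap between the MEC genotypes (*Srm*, *Amd1*, *Azin1* and *Aoc1*), beside 28.7% of all genes tested. The unadjusted *P* was under 0.05 for 2 of the 10 (*Srm* and *Aoc1*), beside 5.42% of all genes. The median log2 fold change was 0.03 over the 10 genes and -0.01 over all genes.

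**Figure D2:**
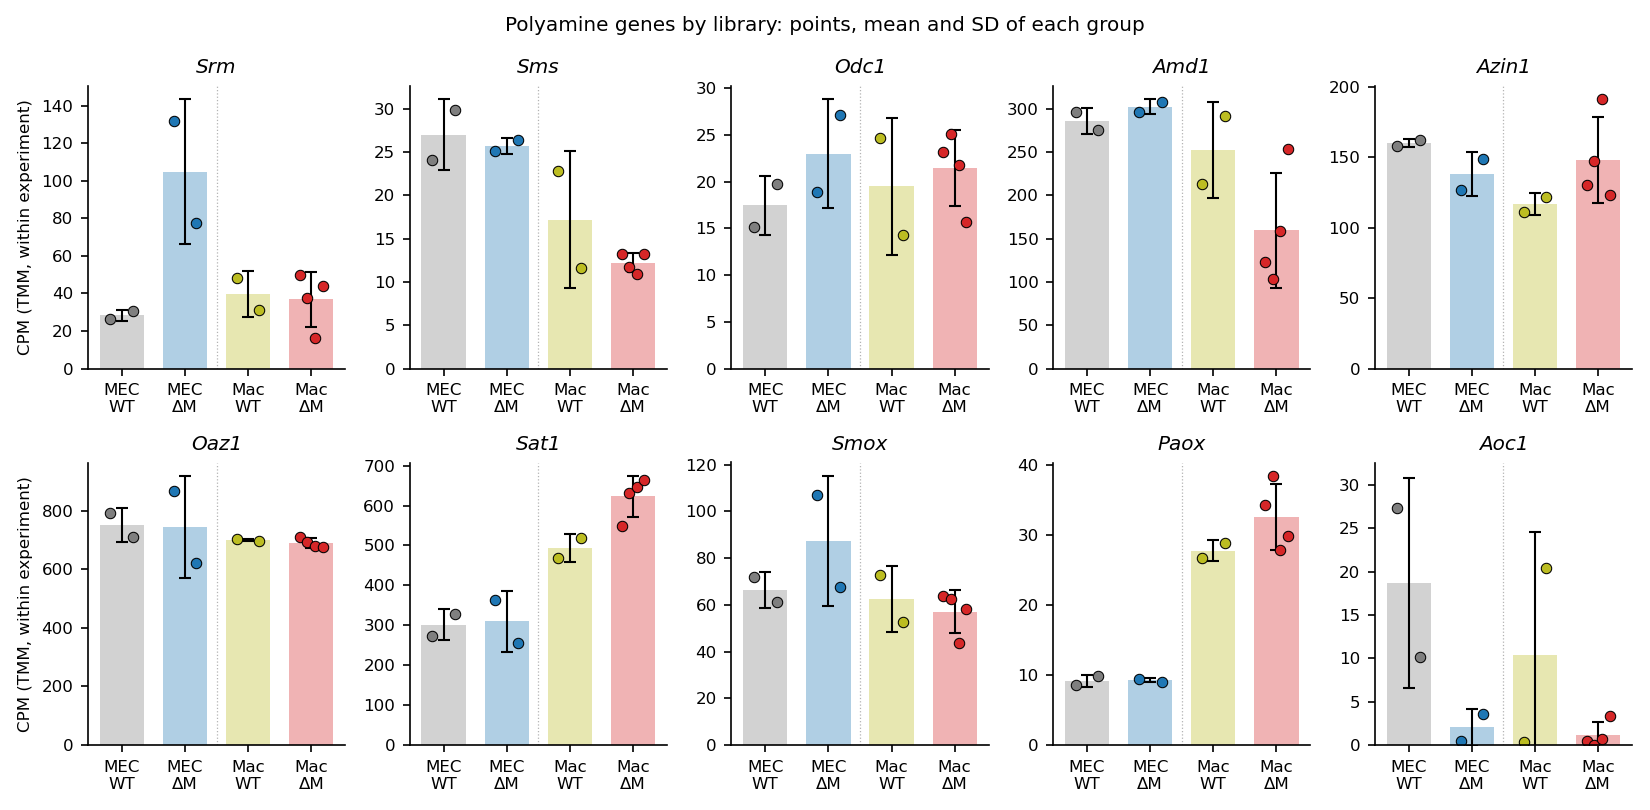
CPM of each gene in each library (points), with the mean (bar) and SD (line) of WT and CebpbΔM (ΔM) MECs and macrophages (Mac). CPM were scaled within each experiment, which the dotted line separates. *Srm* is highest in the CebpbΔM MEC libraries, at 132 and 77.5 CPM, and *Aoc1* is under 4 CPM in 7 of the 10 libraries.

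The markers of other cells in the MEC libraries were compared beside these values. The luminal list summed to 27918 and 35188 CPM in WT and to 34163 and 28996 CPM in CebpbΔM, and the basal list to 7098 and 6032 CPM in WT and 6948 and 5912 CPM in CebpbΔM. Both lists overlapped between the genotypes. Red cell transcripts summed to 25.8 and 29.8 CPM in WT 1 and 3 and to 126 and 54.9 CPM in CebpbΔM 1 and 3, and their part in the *Srm* and *Aoc1* values was not tested. The 10 macrophage markers summed to 34.0 and 29.5 CPM in WT and to 36.6 and 45.6 CPM in CebpbΔM. Like the red cell sums, these did not overlap between the genotypes, and their part in the *Srm* and *Aoc1* values was not tested. Fibroblast markers summed to 6042 and 5077 CPM in WT and to 4978 and 6129 CPM in CebpbΔM, and overlapped.

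The second comparison asked what differed in the macrophage libraries themselves. None of the 10 genes passed the quasi-likelihood test there, and 0 had an unadjusted *P* under 0.05, beside 8.63% of all 17772 genes. Nor was any of the 10 called by the likelihood ratio test or DESeq2. The background at the adjusted threshold was 0 genes or 0% by the quasi-likelihood test, 138 genes by the likelihood ratio test and 201 by DESeq2.

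*Srm* had 48.2 and 31.2 CPM in WT 4 and 5 and 49.8, 37.5, 16.2 and 44.1 CPM in CebpbΔM 4 to 7. The CebpbΔM values lay on both sides of WT, and the log2 fold change was -0.11 (SE 0.41, *P*-adjusted = 0.972, edgeR quasi-likelihood test). *Sms* had 22.8 and 11.6 CPM in WT and 13.2, 11.7, 10.9 and 13.2 CPM in CebpbΔM, with a log2 fold change of -0.49 (SE 0.30). WT 4 alone stood above the rest, and without it the *Sms* log2 fold change was 0.09. *Odc1* had 24.7 and 14.3 CPM in WT and 23.2, 25.1, 21.8 and 15.7 CPM in CebpbΔM, so the genotypes overlapped, with a log2 fold change of 0.14 (SE 0.29).

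*Amd1* had 213 and 291 CPM in WT 4 and 5 and 123, 103, 159 and 253 CPM in CebpbΔM 4 to 7. The genotypes overlapped through CebpbΔM 7, and the log2 fold change was -0.66 (SE 0.34, *P*-adjusted = 0.630, edgeR quasi-likelihood test). It stayed between -1.14 and -0.42 under all 15 alternatives. *Amd2* and 5 *Amd* pseudogenes are near-identical copies of *Amd1*, and *Amd2* had between 5.4% and 8.96% of its counts. Reads may thus be split, or removed by the limit on mapping quality. Adding the copies gave a log2 fold change of -0.65, which does not restore any removed reads. The 3 macrophage libraries with the lowest *Amd1*, CebpbΔM 4, 5 and 6, were also the 3 with the highest summed basal markers, which were 1298 and 841 CPM in WT 4 and 5 and 3136, 2038, 2009 and 753 CPM in CebpbΔM 4 to 7. Luminal sums were lowest in the same libraries, at 6899, 5723 and 5438 CPM. CebpbΔM 7 was at 6934 CPM, and WT 4 and 5 were at 10410 and 10403 CPM. The part of basal or luminal cells in this difference was not tested.

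Among the regulators, *Azin1* had 111 and 122 CPM in WT and 130, 147, 191 and 123 CPM in CebpbΔM macrophages. All 4 CebpbΔM values were above both WT values, and the log2 fold change of 0.34 (SE 0.21) did not pass the test. *Oaz1* varied least, with 703 and 696 CPM in WT and 711, 693, 679 and 674 CPM in CebpbΔM. The genotypes overlapped, with a log2 fold change of -0.02 (SE 0.13). Its copy *Oaz1-ps* had between 1.92% and 10.5% of the *Oaz1* counts, so reads may be split or removed here too.

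*Sat1* also did not overlap between the macrophage genotypes. It had 468 and 518 CPM in WT 4 and 5 and 549, 632, 646 and 665 CPM in CebpbΔM 4 to 7, with means of 493 ± 35.1 (SD, n = 2) and 623 ± 51.1 CPM (SD, n = 4). The log2 fold change was 0.34 (SE 0.15, *P*-adjusted = 0.587, edgeR quasi-likelihood test), between 0.26 and 0.41 under 15 alternatives, and in none of them did it pass. The macrophage markers moved with the genotype in the same libraries, at 3605 and 5473 CPM in WT 4 and 5 and 5846, 6320, 8335 and 7669 CPM in CebpbΔM 4 to 7. The luminal markers moved the other way, as given above, and the part of either in the *Sat1* values was not tested. *Smox* had 72.6 and 52.6 CPM in WT and 63.9, 62.5, 43.6 and 58.3 CPM in CebpbΔM, and *Paox* had 26.7 and 28.8 CPM in WT and 34.3, 38.4, 27.8 and 29.8 CPM in CebpbΔM. Both genes overlapped between the genotypes. Their log2 fold changes were -0.13 (SE 0.22) for *Smox* and 0.23 (SE 0.20) for *Paox*. Of the 10 genes, 2 did not overlap between the macrophage genotypes (*Azin1* and *Sat1*), beside 18.7% of all genes tested. The median log2 fold change was -0.07 over the 10 genes and 0.00 over all genes.

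*Aoc1* in the macrophage libraries was carried by 2 libraries. It had 410 counts in WT 5 and 54 in CebpbΔM 7, and 6, 8, 0 and 12 counts in WT 4 and CebpbΔM 4, 5 and 6, or 20.4, 3.34, 0.314, 0.419, 0 and 0.666 CPM. High and low libraries occurred in both genotypes. Its log2 fold change of -3.24 (SE 1.5, *P*-adjusted = 0.597, edgeR quasi-likelihood test) rests on WT 5, and without WT 5 or CebpbΔM 7 the gene failed the filter and could not be tested. The 2 libraries with the most *Aoc1* were the 2 with the lowest basal sums, at 841 and 753 CPM, and the part of this in the *Aoc1* values was not tested.

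**Figure D3:**
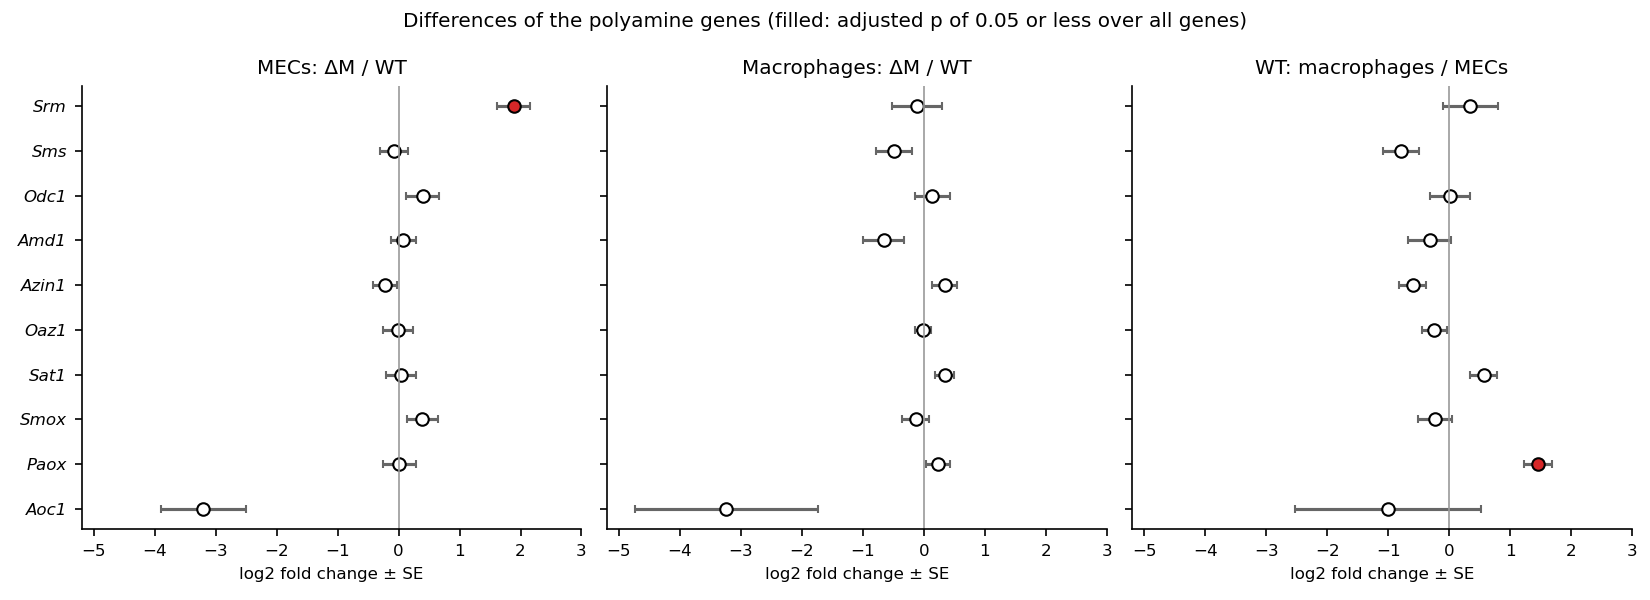
Log2 fold change with its SE for each gene, CebpbΔM over WT in MECs (left) and macrophages (middle), and WT macrophages over WT MECs (right). The filled points, *Srm* in MECs at 1.89 and *Paox* between the cell types at 1.46, passed the threshold of 0.05 over all genes tested.

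Whether the genotypes differed by unequal amounts in MECs and macrophages was tested with an interaction term in the joint fit. None of the 10 genes passed, by the quasi-likelihood test, the likelihood ratio test or DESeq2, and neither did any of the 18323 genes by the quasi-likelihood test (0%). *Srm* had the largest difference of the 10 relative to its error, -1.96 on the log2 scale for macrophages minus MECs (SE 0.59, *P*-adjusted = 0.897, edgeR quasi-likelihood test), and was the only one with an unadjusted *P* under 0.05, at 0.00690, beside 5.19% of all genes. The *Srm* effect of 1.89 in MECs and of -0.11 in macrophages is thus not shown to differ after adjustment. For *Aoc1* the difference was 0.00 with an SE of 2.08, so this test could not set the 2 effects apart at this spread.

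WT macrophage and WT MEC libraries were then compared, where cell type, isolation and sequencing experiment cannot be told apart. *Paox* was higher in the macrophage libraries, at 25.6 and 27.6 CPM in WT macrophages and 9.10 and 10.2 CPM in WT MECs on the scale set over all libraries. The cell types did not overlap, and the CebpbΔM libraries were at 33.4, 37.3, 27.2 and 29.0 CPM in macrophages and 10 and 9.24 CPM in MECs. The log2 fold change was 1.46 (SE 0.23, 2.75-fold, *P*-adjusted = 0.00105, edgeR quasi-likelihood test) and stayed between 1.38 and 1.55, and past the threshold, under all 17 alternatives. *Paox* (ENSMUSG00000025464, chr7:140115799-140137224, plus strand) overlaps *Echs1* on the other strand, and the counting used read strand. It was the only one of the 10 genes called, beside 25.5% of all genes, so the share of the 10 was not above the background. Markers of several other cell types were also higher in each macrophage library than in each MEC library. On the scale over all libraries, macrophage markers summed to 3454 to 8157 CPM against 30.9 to 46.7 CPM in MECs, endothelial markers to 687 to 1478 against 57.9 to 86.5 CPM, and adipocyte markers to 405 to 1107 against 30.7 to 33.2 CPM. Mast cell markers summed to 23.2 to 48.9 against at most 0.284 CPM, and neutrophil markers to 17.3 to 42.3 against 0.406 to 0.85 CPM. Fibroblast markers were high in both preparations and overlapped, at 3244 to 7599 CPM in macrophage libraries and 5269 to 6432 CPM in MEC libraries. In WT macrophage libraries they summed to 6972 and 6550 CPM. The part of any of these cells in the differences between the cell types, of *Paox* and of the genes named further on, was not tested.

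The remaining 9 genes did not pass between the cell types. *Sat1* was at 449 and 495 CPM in WT macrophages and 291 and 345 CPM in WT MECs, with a log2 fold change of 0.57 (SE 0.22, *P*-adjusted = 0.0768, edgeR quasi-likelihood test). *Sms* had a log2 fold change of -0.79 (SE 0.30) and *Azin1* of -0.60 (SE 0.22), both without overlap. DESeq2 called these 2 and *Paox*, or 3 of the 10 genes, beside 5697 of all 18323 genes. Without macrophage WT 4 the *Sms* log2 fold change was -1.32 and passed (*P*-adjusted = 0.00948, edgeR quasi-likelihood test), without macrophage WT 5 it was -0.34 (*P*-adjusted = 0.439), and with the counts of *Sms-ps* added it was -0.62 (*P*-adjusted = 0.146). By that test *Azin1* passed without macrophage CebpbΔM 6 (*P*-adjusted = 0.0364) and *Sat1* without MEC CebpbΔM 1 (*P*-adjusted = 0.0438) or 3 (*P*-adjusted = 0.0442). *Srm* (0.35, SE 0.45) and *Odc1* (0.02, SE 0.33) overlapped between the cell types. Of the 10 genes, 6 did not overlap between the cell types, beside 65.1% of all genes. The median log2 fold change was -0.23 over the 10 genes and 0.06 over all genes.

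The genes that feed the pathway were described from lists that hold none of the 10. Of 16 tested genes of arginine, ornithine and S-adenosylmethionine supply and methionine salvage, 0 passed the quasi-likelihood test in either genotype comparison. The background was 0.051% of all genes in MECs and 0% in macrophages. *Arg1*, the arginase that makes ornithine in the cytosol, had 25.4 and 33 CPM in WT MECs and 82.6 and 60.5 CPM in CebpbΔM MECs. The genotypes did not overlap, beside 28.7% of all genes without overlap in MECs. The *Arg1* log2 fold change of 1.29 (SE 0.24) missed the quasi-likelihood threshold (*P*-adjusted = 0.0991). *Arg1* was the only gene of the 16 with an unadjusted *P* under 0.05 in MECs, beside 5.42% of all genes. It was also the only gene of the list called by the likelihood ratio test (*P*-adjusted = 7.29e-04) and by DESeq2 (*P*-adjusted = 8.50e-04). These 2 tests called 179 and 161 of all 15698 genes. In macrophage libraries *Arg1* had 29.1 and 28.2 CPM in WT and 20.9, 16.0, 47.2 and 54.9 CPM in CebpbΔM, on both sides of WT.

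*Arg2*, the mitochondrial arginase, had 152 and 133 CPM in WT MECs and 225 and 163 CPM in CebpbΔM MECs, with a log2 fold change of 0.44 (SE 0.23) that did not pass. In macrophage libraries it had 239 and 85.2 CPM in WT and 66.4, 114, 70.7 and 154 CPM in CebpbΔM, and the genotypes overlapped. *Myc*, whose product is known to bind the *Odc1* gene, had 871 and 842 CPM in WT MECs and 1088 and 646 CPM in CebpbΔM MECs. In macrophage libraries *Myc* had 564 and 466 CPM in WT and 573, 517, 593 and 357 CPM in CebpbΔM. The log2 fold changes of *Myc* were 0.02 (SE 0.27) and -0.01 (SE 0.22).

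Of 16 tested *Myc* family and growth genes, 0 passed the quasi-likelihood test in either genotype comparison. In MECs 3 of the 16 had an unadjusted *P* under 0.05, beside 5.42% of all genes, and in macrophages 2 of the 16, beside 8.63%. The 3 in MECs were *C1qbp* (log2 fold change 1.19, SE 0.26), *Fbl* (0.82, SE 0.24) and *Mycl* (-0.99, SE 0.37), and the 2 in macrophages were *Mycl* (-1.37, SE 0.58) and *Cad* (-0.79, SE 0.26). All 4 were named after their values were seen. In MECs *C1qbp* was called by the likelihood ratio test and DESeq2, which called 179 and 161 of all 15698 genes. The log2 fold change was above 0 for 14 of the 16 in MECs, with a median of 0.16, and for 9 of the 16 in macrophages, with a median of 0.05. The medians of all genes were -0.01 and 0.00.

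Of 11 tested further enzymes and regulators, 4 hypusine and eIF5A genes, which use spermidine to modify that translation factor, and 7 transport genes, 0 passed in either genotype comparison. In MECs 0, 0 and 1 of these had an unadjusted *P* under 0.05, beside 5.42% of all genes, and in macrophages 0, 0 and 3, beside 8.63%. By the likelihood ratio test and DESeq2 the count was 0 in MECs and 1 in macrophages. In macrophages these tests called 138 and 201 of all 17772 genes. The 1 gene was the organic cation transporter *Slc22a2*, with 0 counts in both WT libraries and 9, 33, 68 and 23 counts in CebpbΔM 4 to 7. Its name was taken after the values were seen.

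Between the WT cell types, 3 of 16 supply genes, 2 of 11 further enzymes, 0 of 4 hypusine genes, 2 of 8 transport genes and 4 of 16 growth genes passed the quasi-likelihood test, beside 25.5% of all genes, so no list had a share above the background. *Hdc*, which makes histamine (log2 fold change 4.26, SE 0.39), and *Hnmt*, which methylates it (2.90, SE 0.44), were higher in the macrophage libraries, as were *Gatm* (2.32, SE 0.29) and *Atp13a2* (1.76, SE 0.35). *Slc7a1*, *Adi1*, *Atp13a4*, *Ncl*, *Npm1*, *Nop58* and *Mrto4* were lower. These 11 genes were named after their values were seen.

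**Figure D4:**
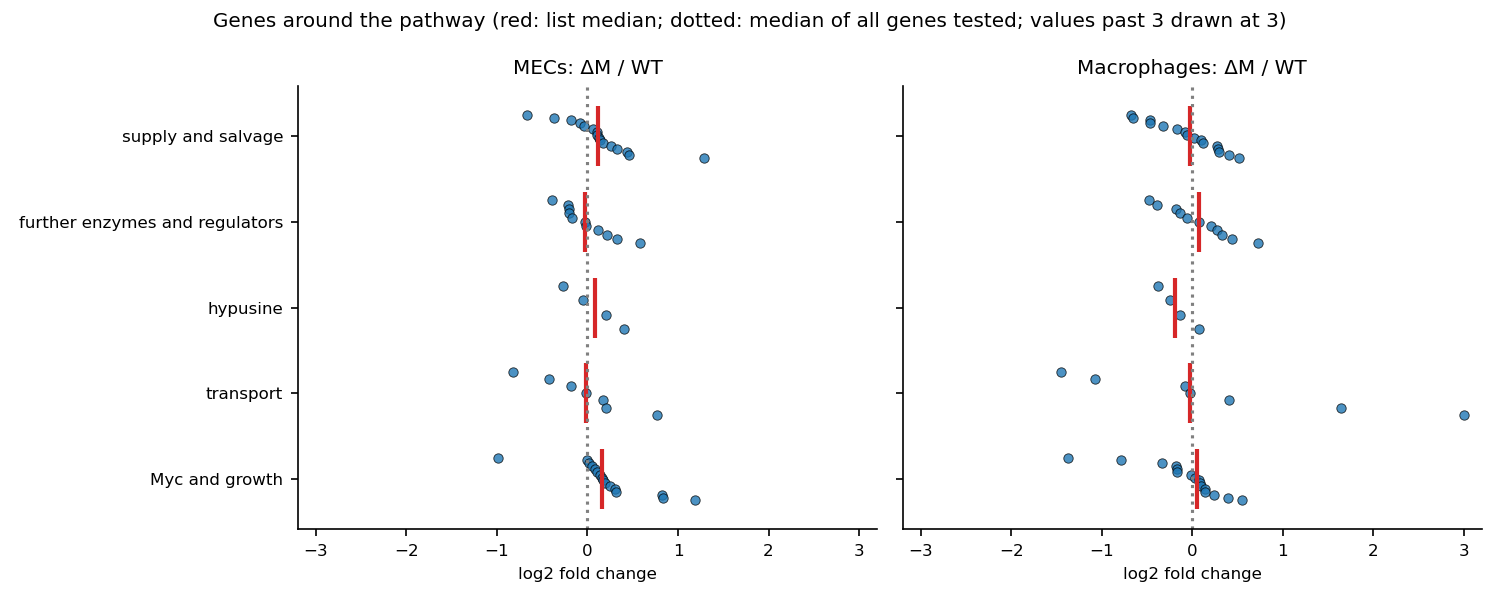
Log2 fold change, CebpbΔM over WT, of the tested genes of 5 lists around the pathway (points) in MECs and macrophages, with the list median (red) and the median of all genes (dotted). The 14 of 16 growth genes above 0 in MECs and *Arg1* at 1.29 can be seen, and the macrophage point at the right edge is *Slc22a2*, drawn at the limit of 3 because its fitted value lies beyond the axis and, with 0 counts in both WT libraries, gives no fold.

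The genes whose pattern was most like that of *Srm* and *Aoc1* were found by Pearson's r of log2 CPM over the 10 libraries, each cell type centered on its own mean, among 18323 genes. For *Srm* these were *Ubqln1* (r = 0.970), *Gas2l1* (0.967), *Gm43474* (0.967), *Slc15a4* (0.961) and *Txndc5* (0.960). For *Aoc1* they were *Sh3d19* (0.981), *Gm10179* (0.955), *4921525O09Rik* (0.951), *Dus2* (0.946) and *Gm13031* (0.935). None of the 10 polyamine genes was among them. The values are a description, since the points share libraries and depth and the highest of many correlations are shown.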

How the data were processed

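RNA from MECs and F4/80-selected macrophages was sequenced by the authors as low-input paired-end libraries of 150 bp. Per the labels and headers, the authors used Trimmomatic (version 0.33) for trimming and HISAT2 (version 2.1.0) for alignment to GRCm38, and counted reads on Ensembl release 100 with featureCounts (version 1.6.2). The file headers give strand setting 2 and a mapping quality of at least 10. The files the authors deposited hold raw counts, with no normalization. Of 55487 gene identifiers, 55141 matched a symbol.

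Genes under 300 nt (8951) were removed, and genes over 1 CPM in at least 2 libraries were kept. With TMM factors, edgeR (version 4.0.16, R version 4.3.3) gave 15698 tested genes in MECs, 17772 in macrophages and 18323 in the joint fit. The quasi-likelihood test was used with Benjamini-Hochberg adjustment over all genes at 0.05. The study's methods name the likelihood ratio test, which was run as an alternative beside DESeq2 (version 1.42.0). CPM carry TMM scaling within each experiment, or over all 10 libraries where levels are compared per kb or between cell types. Floors in counts cover counting error only. The SDs and SEs also include the spread between libraries, which may be technical. With 2 against 2 libraries an exact two-sided permutation test cannot go below 0.333, and with 4 against 2 not below 0.133, so none is given.

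The rule for naming genes was all 10 members, other listed genes called in a genotype comparison or the interaction, and *Arg1*, *Arg2* and *Myc*. Genes named outside this rule are marked in the text as named after their values were seen. Members and lists were chosen with earlier results of these data known. The fits were tested on simulated data. Python (version 3.11.15), pandas (version 2.3.3), numpy (version 2.4.6) and matplotlib (version 3.10.9) were used for tables and plots.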

Additional observations from a re-analysis of the deposited data

How the results depend on the processing

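Over the 10 genes and 4 comparisons, 551 of 607 values under an alternative kept their direction and side of the threshold, 40 changed sign, 12 gained the call and 4, all of *Srm* in MECs, lost it. The number of genes called in MECs was 8, against 179 with the likelihood ratio test, 161 with DESeq2, 67 without a filter, 4 with robust quasi-likelihood (added after seeing the data) and 2 (without WT 3) to 337 (without CebpbΔM 3) with a library left out, among them 42 without CebpbΔM 1 and 98 without WT 1. In macrophages it was 0, against 138 and 201 with the likelihood ratio test and DESeq2. For the interaction it was 0, against 53 and 27 with these tests and 0 to 1 with a library left out, the 1 without MEC WT 3. Between WT cell types it was 4664, and 2456 to 4846 with a library left out, with 2456 without MEC WT 3, 2733 without MEC WT 1 and 3041 without macrophage WT 5. The cause was not tested. Robust quasi-likelihood also ended the *Srm* call (*P*-adjusted = 0.0730).

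Replicate numbers were shared between genotypes. Taken as differences from their group means, gene values of same-numbered libraries correlated weakly (r = 0.106 in MECs and 0.041 in macrophages, 2 pairs each). Whole MEC libraries of the same number correlated at r = 0.978 and 0.982, and those of different number at 0.979 and 0.977. In macrophages the values were 0.925 and 0.917 for the same number and 0.907 to 0.934 for different numbers. The numbers were not taken as pairs, but 2 pairs per cell type cannot decide whether they mark pairs. The replicate block gave 205 calls in MECs, 12 in macrophages and 1 in the interaction, with log2 fold changes of 0.15 (*Srm*), 0.00 (*Oaz1*) and 0.03 (*Smox*) in macrophages and 0.02 (*Odc1*) and -0.78 (*Aoc1*) in the interaction, against the sign of the values without it. With the block *Aoc1* was called in MECs (*P*-adjusted = 7.70e-04).

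Changes of sign under the other alternatives that did not leave out a single library were small. They were *Oaz1* in MECs at 0.00 with filterByExpr, *Srm* at 0.15, *Oaz1* at 0.02 and *Smox* at 0.02 with macrophage replicates 4 and 5 only, *Aoc1* in the interaction at -0.00 without a filter, and *Odc1* between cell types at -0.02 with DESeq2 and with relative log expression. With a library left out, MEC log2 fold changes ran from -0.21 to 0.12 (*Sms*), -0.27 to 0.20 (*Oaz1*), -0.24 to 0.27 (*Sat1*) and -0.08 to 0.13 (*Paox*). Macrophage values ran from -0.39 to 0.24 (*Srm*), -0.90 to 0.09 (*Sms*), -0.20 to 0.58 (*Odc1*) and -0.35 to 0.12 (*Smox*). Interaction values ran from -0.82 to 0.16 (*Sms*), -0.58 to 0.20 (*Odc1*), -0.21 to 0.32 (*Oaz1*) and -1.61 to 4.98 (*Aoc1*). Cell type values ran from -0.38 to 0.40 (*Odc1*), -0.44 to 0.03 (*Smox*) and -5.97 to 0.02 (*Aoc1*).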
